A study of Mus musculus with 2 samples.

Results

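Macrophages take up, store and release lipid, and 10 genes of that handling, out of 32285 measured genes, were followed across the cell types of the fetal mouse lung. They were picked by name (Cd36, Lpl, Fabp4, Fabp5, Gpat3, Plin2, Soat1, Lipa, Abca1 and Abcg1), and all 10 were found in both count tables. RNA and open chromatin had been profiled jointly in single nuclei, in 1 library of 9 pooled fetuses of a mother given PBS (E18_PBS) and in 1 library of 8 pooled fetuses of a mother with ovalbumin (OVA)-induced asthma (E18_OVA). Both mothers were wild-type C57BL/6J mice that had received alum by injection, with OVA or without it, had been mated to untreated males and were given OVA or PBS through the nose during pregnancy, and the fetal lungs were taken on gestation day 18. Sorted group 2 innate lymphoid cells (ILC2; CD45+ Lin- ST2+), CD45+ immune cells and EpCAM+ epithelial cells had been mixed ahead of nuclear isolation. Because each group was 1 library from 1 mother, no test between the groups was possible, so every difference between E18_PBS and E18_OVA describes these 2 libraries and has no replicate check.

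Fatty acids reach a macrophage through the scavenger receptor CD36 and through lipoprotein lipase, which cuts triglyceride in lipoproteins. Inside the cell they are carried by fatty acid-binding proteins, joined to glycerol or to cholesterol and kept in droplets coated with perilipin, while lysosomal acid lipase frees cholesterol and fatty acids from engulfed particles. Surplus cholesterol leaves through the transporters ABCA1 and ABCG1, whose genes are switched on by the sterol-sensing liver X receptors (LXR). Alveolar macrophages mature around birth under the factor PPARG, clear surfactant lipid from the air spaces and are known for expressing many of these genes.

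The libraries held 8019 (E18_PBS) and 5960 (E18_OVA) barcodes with 11473351 and 13774959 gene UMIs (unique molecular identifiers, each standing for 1 captured RNA molecule). After filtering, 4279 and 4996 nuclei were kept, with medians of 1116 and 1821.5 UMIs and with 37.4% and 27.8% of UMIs from mitochondrial genes. The mitochondrial share differed, so levels are given as UMIs summed over the nuclei of a class per 1000000 UMIs from nuclear genes (CPM). Values in parentheses after a level, share or log2 ratio give its 95% interval, which covers nothing but counting error. Of the barcodes, 54 occurred in both libraries, and 30 of these were among the kept nuclei of both. Levels of different genes are not set against each other, because genes differ in length and capture.

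Cell classes were assigned without any of the 10 genes. A strict gate (at least 3 of 8 markers of a type detected, and at least 2 more than of any other type) left 57 (E18_PBS) and 104 (E18_OVA) macrophages, 18 and 30 monocytes, and 2742 and 2652 nuclei with no type. Clusters named from the same markers held 1140 and 1418 Macrophage-like and 92 and 207 Monocyte-like nuclei. Most values below come from the clusters, and the gate's value stands beside them wherever both ways of choosing nuclei give different answers. Summed over the 8 macrophage markers, Macrophage-like nuclei had 1620 and 1723 CPM, against 699 and 785 CPM in Monocyte-like, 97.04 and 144 CPM in alveolar type 2 (AT2)-like and 75.8 and 46.4 CPM in ILC2-like nuclei. Fibroblast-like nuclei, which the sort by CD45 and EpCAM should have left out, numbered 959 and 1179 and had 383 and 458 CPM of the macrophage markers.

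The Macrophage-like class joined 4 clusters, called here by a leading gene. The Ear2-led cluster held 822 (E18_PBS) and 419 (E18_OVA) nuclei, the Nrg4-led cluster 125 and 794, the Wfdc17-led cluster 146 and 152 and the C1qa-led cluster 47 and 53, so the Ear2-led cluster made up most of the class in E18_PBS and the Nrg4-led cluster most of it in E18_OVA. The complement genes C1qa, C1qb and C1qc, which many tissue macrophages express, marked the C1qa-led cluster (C1qa alone 45 and 29 UMIs) and were at 0 UMIs in the Ear2-led nuclei of E18_OVA. Genes of alveolar macrophage maturation (a list of 10 such as Car4, Marco, Inhba and Spp1) summed to 1717 and 1851 CPM in the Wfdc17-led cluster against 312 and 272 CPM in the Ear2-led cluster. Car4, Inhba and Spp1 were among the 10 leading genes of the Wfdc17-led cluster, but the list also holds Ear2, a leading gene of the Ear2-led cluster. Siglecf (2 and 3 UMIs over the class), Chil3 (7 and 6), Ear1 (1 and 8) and Krt79 (2 and 10) were almost absent, so the sum rested on part of the list. Genes of interstitial macrophages (a list of 7 such as Cx3cr1 and Apoe) summed to 5099 and 2599 CPM in the C1qa-led cluster and to 80.6 and 83.8 CPM in the Wfdc17-led cluster. The C1qa-led cluster was also high in the 8 monocyte markers, at 3522 and 4145 CPM against 3591 and 3363 CPM in Monocyte-like nuclei, so its name as macrophage rests on the macrophage markers being higher still (10015 and 7978 CPM). The Ear2-led, Nrg4-led and Wfdc17-led clusters had less support, with 4 of the 8 macrophage markers raised in each against 8 in the C1qa-led cluster. In that order, their macrophage markers summed to 1261 and 1433, 1471 and 1583, and 1624 and 1392 CPM. The gate took as macrophages 15 and 9 Ear2-led, 9 and 50 Nrg4-led and 8 and 14 Wfdc17-led nuclei, against 25 and 29 C1qa-led ones. Abcg1 was among the 10 leading genes of the Ear2-led cluster and Gpat3 among those of the Nrg4-led cluster, although neither had been used to cluster.

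The promoters of 4 of the genes are printed here because their RNA was highest in macrophages (Plin2, Gpat3), differed between the libraries (Abca1) or ranked the cell classes otherwise than their chromatin did (Cd36). Each runs from 250 bases before the transcript start to 50 after it, on the gene's own strand, taken from RefSeq on GRCm38.p6, and capitals mark the matches given after it. In both libraries each of the 6 promoters found lay wholly inside a peak of accessible chromatin. Those of Lipa and Soat1 were searched too, and Abcg1, Fabp4, Fabp5 and Lpl were not searched.

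The Abca1 promoter, chr4:53159846-53160145 on the minus strand, was 62.7% G and C with 26 CpG.
Abca1: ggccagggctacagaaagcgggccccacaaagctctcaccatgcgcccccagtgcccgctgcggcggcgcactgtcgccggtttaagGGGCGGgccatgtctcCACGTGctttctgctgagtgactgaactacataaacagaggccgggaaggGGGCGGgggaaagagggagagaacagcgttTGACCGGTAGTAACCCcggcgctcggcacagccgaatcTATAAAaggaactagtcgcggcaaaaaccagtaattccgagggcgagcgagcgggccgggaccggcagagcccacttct

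The Plin2 promoter, chr4:86670010-86670309 on the minus strand, was 60.7% G and C with 10 CpG.
Plin2: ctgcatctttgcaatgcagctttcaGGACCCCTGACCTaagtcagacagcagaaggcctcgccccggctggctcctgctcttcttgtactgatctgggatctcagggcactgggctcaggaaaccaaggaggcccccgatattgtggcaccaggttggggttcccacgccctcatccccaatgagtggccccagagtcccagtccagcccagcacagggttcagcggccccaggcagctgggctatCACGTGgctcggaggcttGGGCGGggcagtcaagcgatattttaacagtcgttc

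The Gpat3 promoter, chr5:100845979-100846278 on the plus strand, was 64.3% G and C with 23 CpG.
Gpat3: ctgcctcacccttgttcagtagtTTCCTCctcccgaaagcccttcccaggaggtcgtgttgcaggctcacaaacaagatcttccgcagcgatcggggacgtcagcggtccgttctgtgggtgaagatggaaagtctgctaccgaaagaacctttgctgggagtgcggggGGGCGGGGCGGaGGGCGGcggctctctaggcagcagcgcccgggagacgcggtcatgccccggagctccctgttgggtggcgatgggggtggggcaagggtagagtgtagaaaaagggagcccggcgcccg

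The Cd36 promoter, chr5:17835847-17836146 on the minus strand, was 43% G and C with 3 CpG.
Cd36: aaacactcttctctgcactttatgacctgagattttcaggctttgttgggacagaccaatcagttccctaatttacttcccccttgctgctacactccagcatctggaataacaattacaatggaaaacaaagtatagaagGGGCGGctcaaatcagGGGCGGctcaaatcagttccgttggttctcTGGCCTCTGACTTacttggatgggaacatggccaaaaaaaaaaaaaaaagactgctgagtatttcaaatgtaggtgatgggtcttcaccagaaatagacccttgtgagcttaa

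Letter patterns of sites for factors known to act in macrophages were searched on both strands of these windows and of all 32851 promoters of the table. A repeat of AGGTCA spaced by 1 base (AGGTCANAGGTCA, at most 2 mismatches), the kind PPARG and RXR bind, matched in Cd36 at -63 to -51 and in Plin2 at -225 to -213, and in 3.86% of all promoters. The same repeat spaced by 4 bases (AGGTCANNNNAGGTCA), the kind LXR and RXR bind, matched none of the 6 at 2 mismatches, and 3.02% of all promoters. At 3 mismatches, a limit widened after that search, it matched Abca1 at -67 to -52 on the minus strand (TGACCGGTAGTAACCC), as it did in 21.9% of all promoters. The repeat spaced by 1 base, at 3 mismatches, matched Cd36, Gpat3 and Plin2, and 24.6% of all promoters. Its matches with 3 mismatches are not in capitals above. The E-box CACGTG, found in 7.15% of promoters, lay at -147 to -142 in Abca1 and at -4 to 2 in Plin2. The PU.1 core GAGGAA (28.3% of promoters) matched in Gpat3 and Lipa, the GC box GGGCGG (35.7%) in all 6, TATAAA (13.6%) in Abca1 and Lipa, and the C/EBP pattern TTGCNNAA (10.8%) in none. The patterns did not overlap each other in these windows, except that 2 GC boxes of Gpat3 shared a base.

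Of the 10 genes, 4 had their highest level in Macrophage-like nuclei in both libraries, namely Lpl, Plin2, Gpat3 and Abcg1, counted over the 9 genes with enough UMIs and the 9 (E18_PBS) or 11 (E18_OVA) classes of at least 50 nuclei. Over all genes counted the same way, 13.4% were highest in Macrophage-like nuclei in E18_PBS and 9.91% in E18_OVA. By the gate, 3 of 6 genes in E18_PBS (Abca1, Lpl and Plin2) and 4 of 8 in E18_OVA (Abcg1 as well) were highest in macrophages, against 17.7% and 19% of all genes. The gated counts ran over 7 and 8 types of at least 50 nuclei, with monocytes and neutrophils in neither library.

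**Figure D1:**
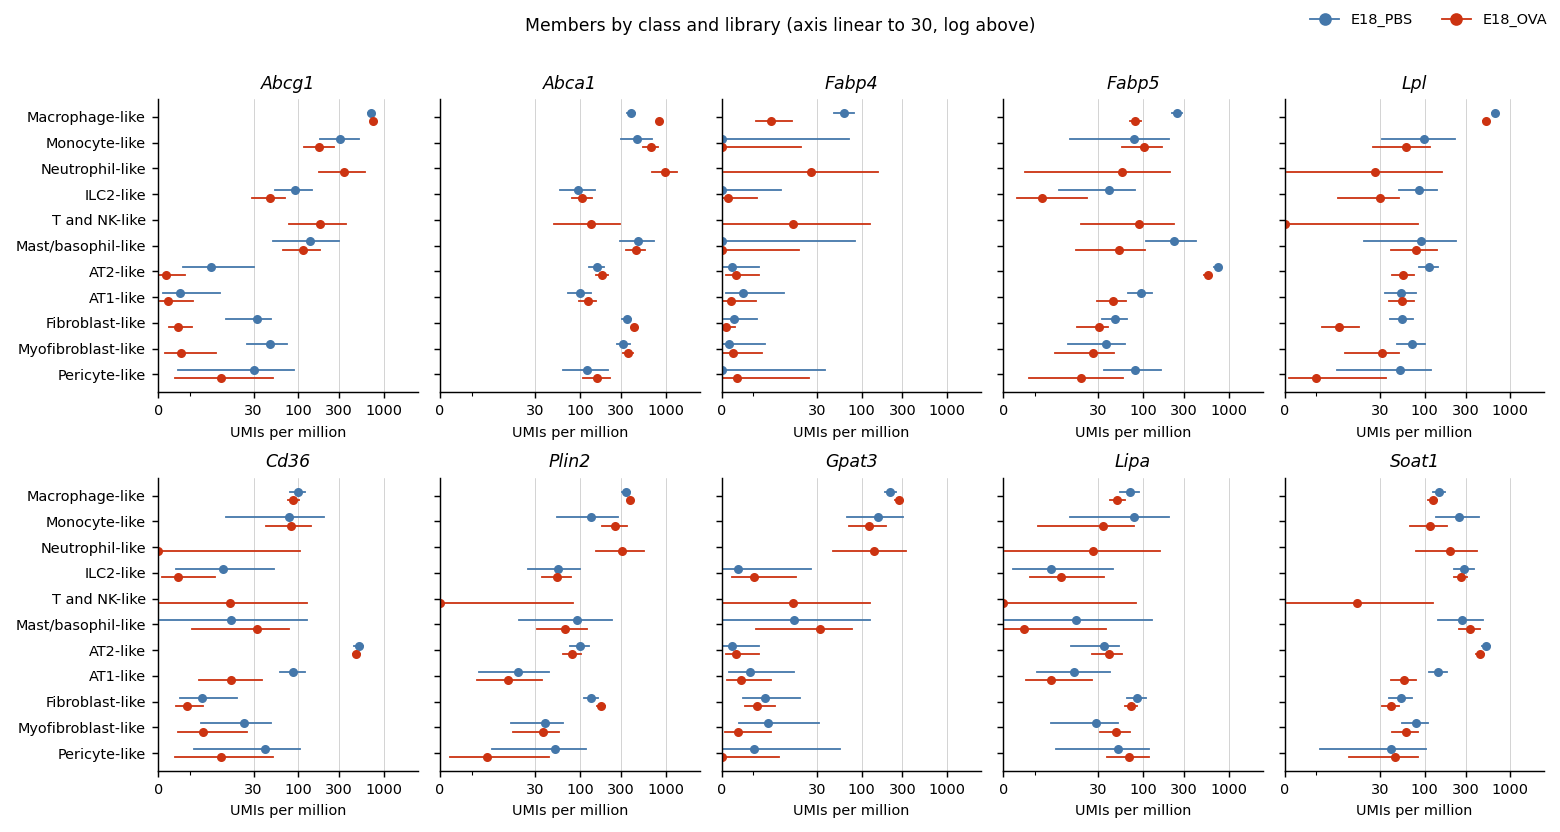
Level of each of the 10 genes (CPM, axis linear to 30 and logarithmic above) by cell class in E18_PBS (blue) and E18_OVA (red), points with 95% counting intervals, for classes of at least 50 nuclei in that library. Lpl stood at 666 and 517 CPM in Macrophage-like nuclei and at no more than 112 CPM in any other class shown, while Fabp5, Cd36 and Soat1 were highest in AT2-like nuclei.

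Among the uptake genes, Lpl (lipoprotein lipase, chr8:68880491-68907448, plus strand) was the one most set apart. It reached 666 CPM in Macrophage-like nuclei of E18_PBS (621 UMIs) and 517 CPM in E18_OVA (1055 UMIs). The next class was AT2-like in E18_PBS at 112 CPM and mast cell or basophil-like in E18_OVA at 79.3 CPM, and the intervals of both ratios lay above 0 on the log2 scale (2.21 to 2.96 and 1.89 to 3.66). No neighbours below these were separated. Cd36 (the fatty acid translocase, chr5:17781690-17888801, minus strand) ran the other way: it stood at 507 and 474 CPM in AT2-like nuclei against 98.6 and 87.2 CPM in Macrophage-like nuclei. Among named classes of at least 50 nuclei, Macrophage-like came second in both libraries but could not be told from the next class, AT1-like (86.9 CPM) in E18_PBS and Monocyte-like (81.2 CPM) in E18_OVA. Of the smaller sets, a cluster without a name led by Hbb-bs (27 and 33 nuclei) had 240 CPM (191 to 298) and 453 CPM (397 to 514) of Cd36. The best match of this cluster was endothelial, with 8 endothelial markers raised. Cdh5, Ptprb and Emcn were among its leading genes beside haemoglobin genes. Dendritic-like nuclei (31 and 24) had 0 UMIs in E18_PBS and 532 CPM (304 to 863) on 16 UMIs in E18_OVA.

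The fatty acid carriers split between epithelium and macrophages. Fabp5 (chr3:10012548-10016607, plus strand), which also has pseudogene copies in the mouse genome that could share its reads, was highest in AT2-like nuclei at 745 and 570 CPM. Macrophage-like nuclei had 251 CPM in E18_PBS, second and not separated from the mast cell or basophil-like class (228 CPM), and 81.3 CPM in E18_OVA. There they followed Monocyte-like (101 CPM) and T and NK-like (90.6 CPM) nuclei, and no neighbours among these 3 classes were separated. Fabp4 (chr3:10204088-10208576, minus strand), the carrier shared with fat cells, was sparse, with 59 UMIs in Macrophage-like nuclei of E18_PBS (63.3 CPM) and 32 in E18_OVA (15.7 CPM). In E18_PBS no other named class of at least 50 nuclei exceeded 6.68 CPM, and in E18_OVA the 2 named classes above Macrophage-like, Neutrophil-like and T and NK-like, rested on 1 UMI each. A cluster led by Ctnna3 that could not be given a name (192 and 177 nuclei) had 38.9 CPM (17.8 to 73.8) on 9 UMIs in E18_PBS and 66.2 CPM (41.0 to 101) on 21 UMIs in E18_OVA, where it stood above Macrophage-like nuclei.

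Of the storage genes, Plin2 (perilipin 2, the droplet coat, chr4:86648386-86670060, minus strand) was highest in Macrophage-like nuclei at 347 and 389 CPM. It was separated from the next class in E18_PBS (Monocyte-like, 136 CPM, log2 ratio 0.29 to 2.68) but not in E18_OVA (Neutrophil-like, 311 CPM, -0.53 to 1.33). Gpat3 (the acyltransferase that begins triglyceride synthesis, chr5:100845713-100899102, plus strand) stood at 218 and 270 CPM in Macrophage-like nuclei and was at 155 and 122 CPM in Monocyte-like nuclei, with no other class of at least 50 nuclei above 22.8 CPM in E18_PBS. In E18_OVA Neutrophil-like nuclei had 142 CPM, and Macrophage-like nuclei were not separated from the next class in either library. Soat1 (which esterifies cholesterol, chr1:156424525-156474331, minus strand) was highest in AT2-like nuclei at 516 and 442 CPM, against 148 and 124 CPM in Macrophage-like nuclei. ILC2-like nuclei had 288 and 264 CPM.

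Lipa (lysosomal acid lipase, chr19:34492318-34527474, minus strand) was spread over several classes. Fibroblast-like nuclei came first at 84.2 and 73.1 CPM, and Macrophage-like nuclei had 69.7 and 49.98 CPM, not separated from them in E18_PBS (log2 ratio -0.27, -0.79 to 0.24) and lower in E18_OVA (-0.55, -0.92 to -0.18). AT1-like nuclei had 22.3 and 15.2 CPM and ILC2-like nuclei 15.2 and 18.2 CPM. No neighbours among the first 4 classes were separated in either library.

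The efflux transporters differed from each other. Abcg1 (chr17:31057675-31117988, plus strand) was highest in Macrophage-like nuclei at 711 and 737 CPM, separated from the next class in both libraries (Monocyte-like, 311 CPM, log2 ratio 0.48 to 2.01, and Neutrophil-like, 340 CPM, 0.31 to 2.07). It was at 32.7 and 6.13 CPM in Fibroblast-like and 16.4 and 2.30 CPM in AT2-like nuclei. Abca1 (chr4:53030787-53159895, minus strand) was broad. In E18_PBS it stood at 480 CPM in mast cell or basophil-like, 466 in Monocyte-like, 395 in Macrophage-like and 353 in Fibroblast-like nuclei, none separated from its neighbour. In E18_OVA Neutrophil-like nuclei had 991 CPM, Macrophage-like 838 and Monocyte-like 670, and the last 2 were separated (log2 ratio 0.03 to 0.63). By the gate, which drew heavily on the C1qa-led cluster, macrophages were first in both libraries among gated types of at least 50 nuclei. They stood at 1083 and 857 CPM, against 310 and 425 CPM in gated fibroblasts. Gated monocytes (18 and 30 nuclei), neutrophils (11 and 19) and, in E18_PBS, mast cells or basophils (29) were too few to be ranked.

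The plot of levels by class also shows low levels of Lpl and Abcg1 in classes outside the myeloid cells. Over the 8 classes other than Macrophage-like that were compared between the libraries, Abcg1 was lower in E18_OVA in 8, with an interval below 0 in 3. Lpl was lower in 7 of the 8, with an interval below 0 in 4. In Fibroblast-like nuclei Lpl was at 54.1 CPM in E18_PBS and 16.98 CPM in E18_OVA, and Abcg1 at 32.7 and 6.13 CPM, log2 ratios of -1.67 and -2.41.

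Single nuclei were also compared at equal depth, each thinned to 500 nuclear-gene UMIs, which left out 303 and 45 Macrophage-like and 212 and 69 ILC2-like nuclei that were shallower. Abcg1 was detected in 30.8% (27.7 to 34.1) of 837 and 26.9% (24.6 to 29.4) of 1373 Macrophage-like nuclei, against 5.23% of 153 and 1.71% of 409 ILC2-like nuclei. Lpl was detected in 24.6% and 19.9% of Macrophage-like nuclei, against 4.58% and 1.22% of ILC2-like nuclei. Unthinned shares in Macrophage-like nuclei were 39.6% and 52.9% for Abcg1 and 31.8% and 35.6% for Lpl, at median depths of 690.5 and 1227.5 UMIs (453 and 894.5 in ILC2-like nuclei). The unthinned share of Abcg1 was higher in E18_OVA and the thinned share was not. Abca1 was detected in 14.8% (12.5 to 17.4) and 29.1% (26.7 to 31.6) of thinned Macrophage-like nuclei and in 1.96% and 5.62% of ILC2-like nuclei. Fabp4 was detected in 1.79% and 0.655% of Macrophage-like nuclei and in none of the ILC2-like nuclei, which allows shares of up to 1.96% and 0.733% (3 counts), so for Fabp4 the 2 classes could not be told apart by shares at this depth. Counted together, a thinned Macrophage-like nucleus showed on average 1.19 of the 10 genes in each library, a Wfdc17-led nucleus 1.64 and 1.31, an AT2-like nucleus 0.91 and 0.88, and an ILC2-like nucleus 0.31 and 0.26.

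Set against Monocyte-like nuclei of the same library, fetal monocytes being known precursors of alveolar macrophages, Macrophage-like nuclei had more Lpl, Abcg1 and Plin2 in both libraries. Lpl differed most, by 2.78 (1.55 to 4.41) in E18_PBS and 3.09 (2.16 to 4.22) in E18_OVA on the log2 scale, and Abcg1 by 1.19 (0.48 to 2.01) and 2.07 (1.51 to 2.69). Plin2 was 1.35 (0.29 to 2.68) and 0.60 (0.13 to 1.11) higher. The interval lay above 0 for 4 of the 10 genes in E18_PBS and 5 in E18_OVA, and below 0 for none. Of those with at least 100 UMIs over both classes it was 4 of 7 and 5 of 9, where 11.6% and 21% of all genes were above 0. Fabp5 was higher in macrophages in E18_PBS (1.69, 0.32 to 3.58) but not in E18_OVA (-0.32, -1.08 to 0.55), Gpat3 in E18_OVA (1.15, 0.48 to 1.92) and not separated in E18_PBS (0.49, -0.52 to 1.72). Abca1 was close in both (-0.24, -0.84 to 0.42, and 0.32, 0.03 to 0.63), and the differences for Cd36, Lipa and Soat1 were within counting error. Fabp4 had 0 UMIs in Monocyte-like nuclei, where the floors of 3 UMIs were 58.2 and 20.3 CPM, and the intervals of the ratio reached down to -0.22 and -0.75, so no difference was detectable by clusters at this depth. Under the gate of 2 markers, taken up next, Fabp4 was higher in macrophages in E18_PBS (3.38, 0.78 to 8.73) and in E18_OVA (interval from 0.72 up).

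The gate of 3 markers left too few monocytes for this comparison. A gate of 2 markers with a lead of 1 kept 85 and 173 monocytes and gave smaller differences for the genes named first: Lpl 0.67 (0.17 to 1.20) and 1.72 (1.30 to 2.17), Abcg1 0.21 (-0.29 to 0.73) and 0.68 (0.37 to 0.99), and Plin2 0.34 (-0.38 to 1.11) and 0.15 (-0.22 to 0.53). Under it Gpat3 in E18_OVA turned to lower in macrophages (-0.79, -1.21 to -0.36), and Fabp5 was higher there in E18_OVA (1.38, 0.53 to 2.35) and not separated in E18_PBS (0.69, -0.06 to 1.51). Abca1 was slightly higher in macrophages under this gate in both libraries (0.61, 0.002 to 1.25, and 0.27, 0.009 to 0.53). Cd36 was higher in E18_PBS (2.56, 0.60 to 5.67) and not separated in E18_OVA (-0.03, -0.74 to 0.72). Soat1 was lower in E18_OVA (-0.67, -1.29 to -0.02) and not separated in E18_PBS (-0.04, -0.96 to 0.96), and Lipa was separated in neither. Lpl was therefore the only gene of the set above monocytes in both libraries by either choice of nuclei.

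The macrophage clusters differed among themselves, which describes the clusters and is no test of them. In the Wfdc17-led cluster, where the sum of the maturation genes was highest, the carrier and uptake genes were higher than in the Ear2-led and Nrg4-led clusters combined. It held 57 of the 59 macrophage UMIs of Fabp4 in E18_PBS and 22 of 32 in E18_OVA. Fabp5 stood at 979 CPM there against 99.5 CPM in E18_PBS and at 323 against 49.2 CPM in E18_OVA, log2 ratios of 3.30 (2.89 to 3.72) and 2.72 (2.26 to 3.17). Cd36 was 2.17 (1.52 to 2.82) and 1.48 (0.97 to 1.96) higher, Lpl 1.13 (0.88 to 1.38) and 0.67 (0.44 to 0.89), and Plin2 0.86 (0.50 to 1.22) and 0.58 (0.31 to 0.85). Lipa (1.04, 0.30 to 1.73) and Soat1 (0.73, 0.23 to 1.19) were also higher in E18_OVA. In E18_PBS they were not separated (0.74, -0.16 to 1.57, and 0.43, -0.21 to 1.02). The genes of triglyceride synthesis and efflux lay the other way: the log2 ratio was -1.07 (-1.84 to -0.39) and -1.33 (-1.92 to -0.80) for Gpat3, -0.84 (-1.40 to -0.33) and -0.30 (-0.54 to -0.07) for Abca1, and -0.42 (-0.76 to -0.10) and -0.46 (-0.72 to -0.21) for Abcg1. Among genes with at least 100 UMIs in this contrast, 2 of 7 in E18_PBS (Fabp5, Lpl) and 3 of 9 in E18_OVA (Fabp5, Cd36, Lipa) were at least 2-fold higher in the Wfdc17-led cluster, where 6.81% and 5.75% of all genes were. Its share of ribosomal protein UMIs was also higher, at 8.29% and 4.87% against 4.52% and 2.59%, and the part of this in the result was not tested.

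**Figure D2:**
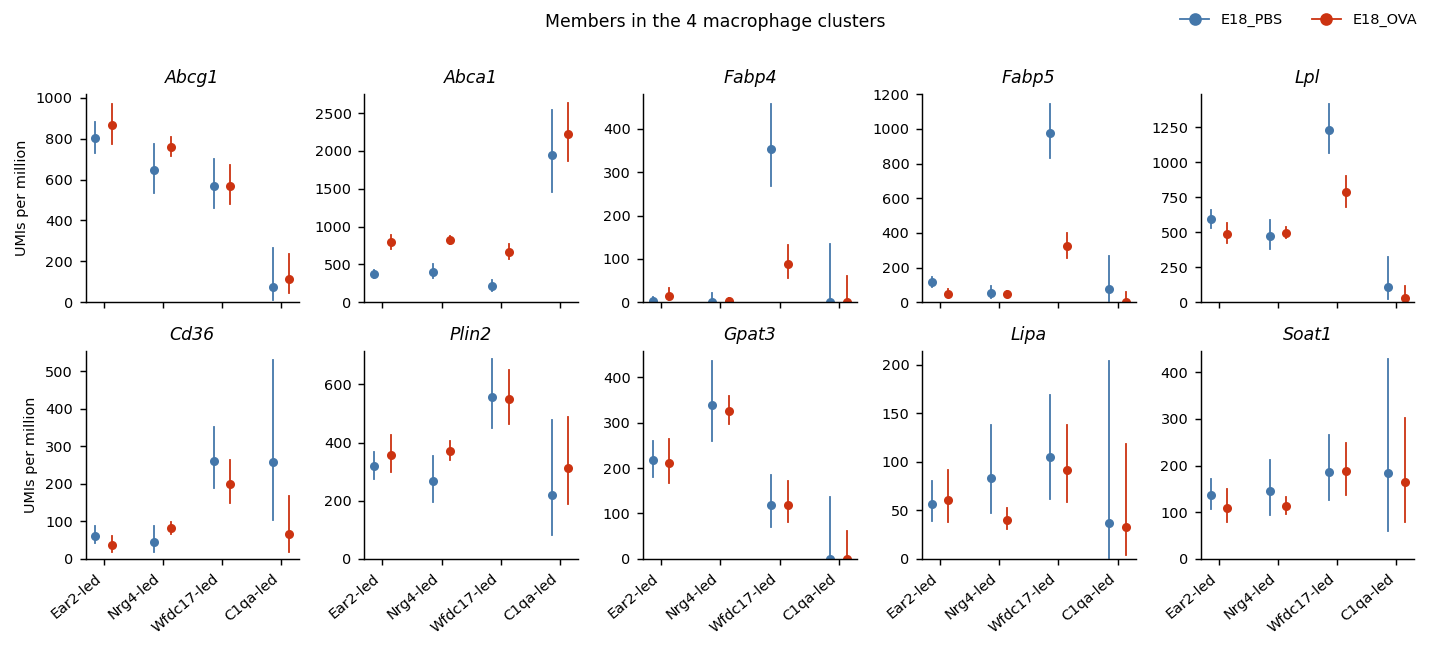
Level of each of the 10 genes (CPM, linear axes that differ between panels) in the 4 macrophage clusters, E18_PBS in blue and E18_OVA in red, points with 95% counting intervals. Fabp4, Fabp5, Lpl and Plin2 were highest in the Wfdc17-led cluster, and Abca1 in the C1qa-led cluster at 1944 and 2221 CPM.

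The C1qa-led cluster had a different make-up. Abca1 stood at 1944 CPM in E18_PBS (53 UMIs) and 2221 CPM in E18_OVA (135 UMIs), 2.36 (1.91 to 2.79) and 1.45 (1.18 to 1.70) above the Ear2-led and Nrg4-led clusters on the log2 scale. It also exceeded Monocyte-like nuclei by 2.06 (1.34 to 2.82) and 1.73 (1.34 to 2.12). The partner transporter Abcg1 was low there, at 73.4 and 115 CPM (-3.38, -6.43 to -1.52, and -2.77, -4.08 to -1.72), and Lpl too, at 110 and 32.9 CPM (-2.36, -4.64 to -0.80, and -3.91, -6.96 to -2.05). Gpat3 had 0 UMIs in both libraries, at least 2.25-fold and 6.12-fold lower than in the Ear2-led and Nrg4-led clusters with 3 UMIs as the floor, and the interval of the log2 ratio ended at -0.86 and -2.31. With 47 and 53 nuclei and 27260 and 60792 UMIs, the other genes of this cluster were sparse, and among them only Cd36 in E18_PBS had an interval clear of 0 (2.15, 0.75 to 3.32, on 7 UMIs). The level of Abca1 was thus highest in the cluster where that of Abcg1 was lowest, but most Macrophage-like UMIs of Abca1 (281 of 368 and 1409 of 1710) lay in the Ear2-led and Nrg4-led clusters, which also held most of those of Abcg1 (569 of 663 and 1355 of 1505).

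Between the Ear2-led and Nrg4-led clusters the differences were smaller. Gpat3 was 0.64 (0.17 to 1.10) and 0.62 (0.27 to 0.99) higher in the Nrg4-led cluster, and Abcg1 0.31 and 0.19 lower on the log2 scale, at 646 and 761 CPM against 802 and 869 CPM. Fabp5 was lower in the Nrg4-led cluster in E18_PBS (-1.20, -2.39 to -0.19) and level in E18_OVA (-0.01), and Cd36 was higher there in E18_OVA (1.18, 0.35 to 2.14) but not in E18_PBS (-0.48, -1.80 to 0.66). For Abca1, Lpl, Plin2 and Soat1 the interval held 0 in both libraries. Median depth was 1325 and 1532.5 UMIs in the Nrg4-led and 614 and 821 UMIs in the Ear2-led cluster, and its part in these differences was not tested.

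Nuclei were also grouped by the maturation genes alone. After thinning, 155 of 837 (E18_PBS) and 198 of 1373 (E18_OVA) Macrophage-like nuclei had at least 1 of the 10 maturation genes. Fabp5 was 2.20 (1.79 to 2.60) and 0.92 (0.38 to 1.44) higher in them on the log2 scale than in nuclei with none, Lpl 0.92 (0.65 to 1.18) and 0.39 (0.17 to 0.62), and Plin2 0.45 (0.04 to 0.84) and 0.30 (0.03 to 0.56). Abca1 was lower in E18_PBS (-0.48, -0.97 to -0.03) and not separated in E18_OVA (-0.15, -0.35 to 0.05). Fabp4 was higher in E18_PBS (1.36, 0.53 to 2.17) but not separated in E18_OVA (0.65, -0.80 to 1.90), and Gpat3 (-0.28 and 0.02), Lipa and Soat1 were not separated in either. Abcg1 was lower in E18_OVA (-0.24, -0.47 to -0.02) and not separated in E18_PBS (-0.17, -0.49 to 0.14). When nuclei were grouped without thinning, Fabp5 and Lpl stayed higher in both libraries, but in E18_PBS the intervals of Abca1 (-0.03, -0.36 to 0.30), Plin2 (0.24, -0.10 to 0.58) and Fabp4 (0.76, -0.05 to 1.54) held 0. These 2 groups of nuclei overlap with the clusters above, so both comparisons rest on the same nuclei.

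Between the libraries, 7 of the 10 genes differed by less than 2-fold in Macrophage-like nuclei. Of the 9 genes with at least 100 UMIs, 1 was at least 2-fold higher in E18_OVA (Abca1) and 1 at least 2-fold lower (Fabp5), where 1.24% of 4776 genes were higher and 1.26% lower by that much. The median over the 10 genes was -0.22 on the log2 scale, against 0.15 over all genes tested. By the gate, 3 of the 10 genes had 100 UMIs and none was past 2-fold in either direction, where 5.29% and 6.73% of 416 genes were, and the median was -0.08 against 0.22.

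**Figure D3:**
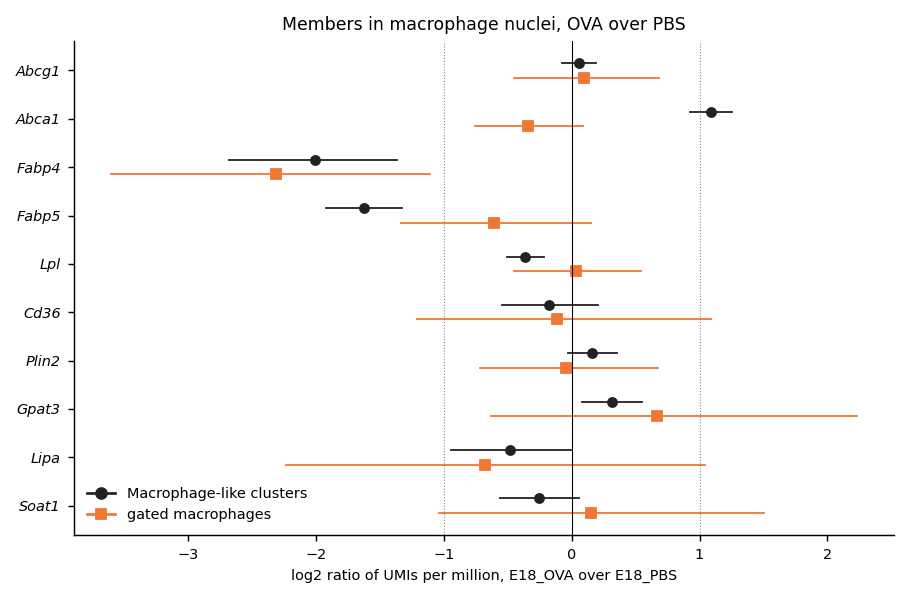
Log2 ratio of the level in E18_OVA over E18_PBS for each of the 10 genes, in Macrophage-like clusters (black circles) and gated macrophages (orange squares), with 95% counting intervals and dotted lines at 2-fold. Abca1 stood at 1.09 in the clusters and at -0.34 by the gate, while Fabp4 lay below the lower dotted line both ways.

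Abca1 was at 395 CPM (355 to 437, 368 UMIs) in E18_PBS and 838 CPM (799 to 879, 1710 UMIs) in E18_OVA, a log2 ratio of 1.09 (0.92 to 1.25). Its place past 2-fold was narrow: under 5 other settings of the clusters it lay between 0.92 and 0.99, and a gate of 2 markers gave 0.67. It was higher in the Ear2-led cluster (370 and 789 CPM, 1.09, 0.83 to 1.36), the Nrg4-led cluster (401 and 822 CPM, 1.03, 0.69 to 1.40) and the Wfdc17-led cluster (211 and 662 CPM, 1.65, 1.11 to 2.23). In the C1qa-led cluster, whose level was highest in both libraries, the ratio was 0.19 (-0.28 to 0.68), and the Ear2-led ratio exceeded it by 0.90 (0.38 to 1.43). The gated macrophages had the opposite sign with an interval that held 0, at 1083 CPM (69 UMIs) and 857 CPM (160 UMIs), -0.34 (-0.75 to 0.09). The gate took 25 of its 57 nuclei in E18_PBS from the C1qa-led cluster and 29 of its 104 in E18_OVA. Within the other 3 clusters, gated nuclei stood at 605 and 479 CPM (-0.34, -0.98 to 0.34, on 29 and 69 UMIs) and nuclei not gated at 334 and 820 CPM (1.30, 1.12 to 1.49). In the C1qa-led cluster, gated nuclei stood at 2536 and 2248 CPM (-0.17, -0.73 to 0.40) and nuclei not gated at 1132 and 2169 CPM (0.94, 0.02 to 1.95). The value for Abca1 therefore depended on which macrophage nuclei were taken, and the cause was not tested.

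**Figure D4:**
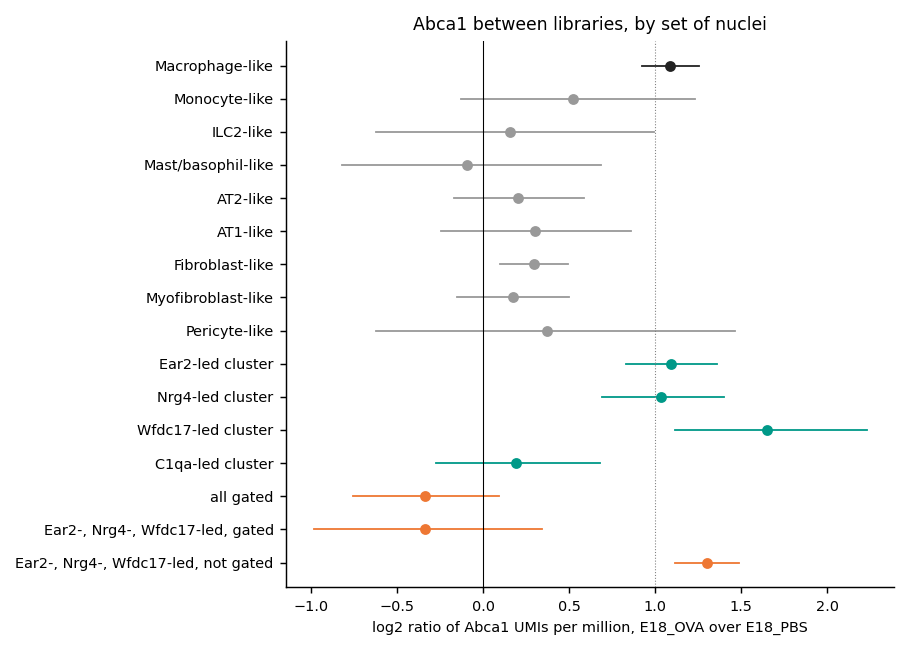
Log2 ratio of Abca1 CPM in E18_OVA over E18_PBS by set of nuclei, with 95% counting intervals: the Macrophage-like class (black), other classes (grey), the 4 macrophage clusters (green) and gated subsets (orange). The Ear2-led, Nrg4-led and Wfdc17-led clusters lay at 1.03 to 1.65, and the gated nuclei of the same clusters at -0.34.

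Abca1 differed less between the libraries in other classes. It was at 353 and 433 CPM in Fibroblast-like nuclei (0.29, 0.10 to 0.49), 158 and 182 CPM in AT2-like nuclei (0.20, -0.17 to 0.59), 96.0 and 107 CPM in ILC2-like nuclei (0.16, -0.62 to 1.00) and 466 and 670 CPM in Monocyte-like nuclei (0.52, -0.13 to 1.23). The Macrophage-like ratio exceeded the Fibroblast-like one by 0.79 (0.54 to 1.04) and the AT2-like one by 0.88 (0.48 to 1.28), but not the Monocyte-like one beyond counting error (0.56, -0.10 to 1.23). Within bands of the mitochondrial share the ratio was 1.76 (0.48 to 3.42) at 0 to 20%, 0.85 (0.49 to 1.22) at 20 to 40% and 1.07 (0.87 to 1.26) at 40 to 60%, on 15 and 34, 137 and 481, and 988 and 903 nuclei.

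Fabp5 was lower in E18_OVA, at 251 CPM (220 to 285, 234 UMIs) in E18_PBS and 81.3 CPM (69.4 to 94.7, 166 UMIs) in E18_OVA, a log2 ratio of -1.63 (-1.92 to -1.33). By the gate it was -0.61 (-1.34 to 0.15) on 25 and 48 UMIs. The Wfdc17-led cluster held 158 of the 234 and 81 of the 166 Macrophage-like UMIs, at 979 and 323 CPM (log2 ratio -1.60), and in the Ear2-led cluster it was -1.22 (-2.06 to -0.45), whereas in the Nrg4-led cluster it was -0.03 (-1.04 to 1.16). Outside macrophages, Fabp5 was lower in E18_OVA in 7 of 8 classes, with an interval below 0 in 4 of them: the ratio was -1.74 (-3.54 to -0.02) in ILC2-like, -2.11 (-3.66 to -0.62) in mast cell or basophil-like, -1.08 (-1.82 to -0.37) in AT1-like and -0.39 (-0.57 to -0.20) in AT2-like nuclei. Monocyte-like nuclei had a ratio of 0.39 (-1.26 to 2.44). The Macrophage-like ratio was lower than that of AT2-like nuclei, which held the most (difference -1.24, -1.58 to -0.90), and not separated from that of AT1-like nuclei (-0.54, -1.28 to 0.20).

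Fabp4 lay under the minimum of 100 UMIs and was not counted, but its levels were 63.3 CPM (48.2 to 81.6) and 15.7 CPM (10.7 to 22.1), a log2 ratio of -2.01 (-2.68 to -1.37), and -2.32 (-3.61 to -1.11) by the gate on 17 and 10 UMIs. The difference lay in the Wfdc17-led cluster, with 353 and 87.8 CPM (-2.01, -2.79 to -1.28). Without that cluster only 2 and 10 UMIs remained, and the ratio was 1.11 (-1.13 to 4.34). The Wfdc17-led cluster held 146 and 152 nuclei and 1717 and 1851 CPM of the maturation genes.

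The other genes differed by less. Lpl was 666 and 517 CPM (-0.37, -0.51 to -0.22), and by the gate 738 and 755 CPM (0.03, -0.45 to 0.54). Gpat3 was 218 and 270 CPM (0.31, 0.08 to 0.55), with -0.04 (-0.47 to 0.38) in the Ear2-led and -0.06 (-0.45 to 0.35) in the Nrg4-led cluster taken alone. Abcg1 was 711 and 737 CPM (0.05, -0.08 to 0.19), Plin2 347 and 389 CPM (0.16, -0.03 to 0.35), Cd36 98.6 and 87.2 CPM (-0.18, -0.55 to 0.20), Soat1 148 and 124 CPM (-0.26, -0.56 to 0.05) and Lipa 69.7 and 49.98 CPM (-0.48, -0.94 to -0.01). Besides the mitochondrial share (49.8% and 41.7% in Macrophage-like nuclei), ribosomal protein genes (5.18% and 2.86% of nuclear UMIs) and the sum of 16 stress genes (3712 and 3173 CPM) differed between the libraries, and their part in these values was not tested.

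Other genes of the same pathway were followed as 4 lists of 48 genes. In Macrophage-like nuclei 29 of them had 100 UMIs, with a median of 0.17 against 0.15 over all genes. Of the 29, 18 were above 0, where the median of all genes was above 0 too. At least 2-fold higher in E18_OVA was 1 and none was lower by that much, against 1.24% and 1.26% of all genes. The gene past 2-fold was Dgat1, which makes the last step of triglyceride synthesis, at 294 and 753 CPM (1.36, 1.17 to 1.55). It was 1.36 (0.52 to 2.32) by the gate as well, on 13 and 98 UMIs, as the one of the 5 list genes past 100 UMIs there that was past 2-fold. The next highest was its fellow enzyme Dgat2 (83.6 and 122 CPM, 0.55, 0.18 to 0.94). The 2 lowest were Npc2 and Npc1, which carry cholesterol out of the lysosome, at 205 and 103 CPM (-0.99, -1.28 to -0.70) and 67.5 and 58.3 CPM (-0.21, -0.66 to 0.25).

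By list, the uptake genes (6 of 10 tested) had a median of 0.06, fatty acid activation and storage (7 of 13) 0.30, lipolysis and lysosome (6 of 10) -0.13, and efflux and its regulators (10 of 15) 0.20. Pparg, the factor of alveolar macrophage maturation, was level at 444 and 430 CPM (-0.05, -0.22 to 0.13). Of the 10 maturation genes 5 were tested, with a median of -0.51 and with Inhba alone above 0 (0.95). The 7 interstitial genes had 3 tested, with a median of -0.76 and 1 past 2-fold lower, Apoe, at 222 and 108 CPM (-1.04, -1.32 to -0.76). Of the 16 stress genes 13 were tested, with a median of -0.24, Jund past 2-fold lower (175 and 87.2 CPM) and Nr4a1 alone above 0 (0.40).

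The genes whose pattern was most like that of the 4 genes with the most macrophage UMIs were sought by Pearson's r over the 20 points of class and library with at least 50 nuclei, among 4374 genes. Points of 1 library share its depth and free RNA, so r is a description with no test. Abcg1 was nearest to Baz1a, Cd44 and Itgb2 (r of 0.95 for each), Abca1 to Klhl2 (0.90), Rabgef1 (0.85) and Ap1s2 (0.83), Lpl to Fth1 (0.91), Gm26542 (0.81) and Mrc1 (0.80), one of the macrophage markers, and Plin2 to Eepd1 (0.85), Tnfaip2 (0.84) and Vps26a (0.82). Among the 10 genes themselves, Abcg1 and Gpat3 were most alike (0.88), then Fabp5 and Cd36 (0.84), the pair that AT2-like nuclei led.

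Chromatin in the same nuclei gave a second reading. Transposition counts were summed over peaks within 1 kb of a gene's starts and given per 1000000 counts in peaks. The peaks had been called in each library separately, so the 2 libraries stand side by side with no ratio between them. Both ends of 1 fragment can be counted, so these intervals are somewhat too narrow. In E18_PBS all 10 genes had such a peak, and 8 had an interval above 0 for Macrophage-like nuclei over all other nuclei, 1 below. In E18_OVA 9 had a peak (Fabp4 had none), and 7 lay above. By the gate 3 and 5 did. Over all protein-coding genes with a peak at a start, 15.5% and 15.6% lay above 0 by clusters and 9.66% and 10.1% by the gate.

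**Figure D5:**
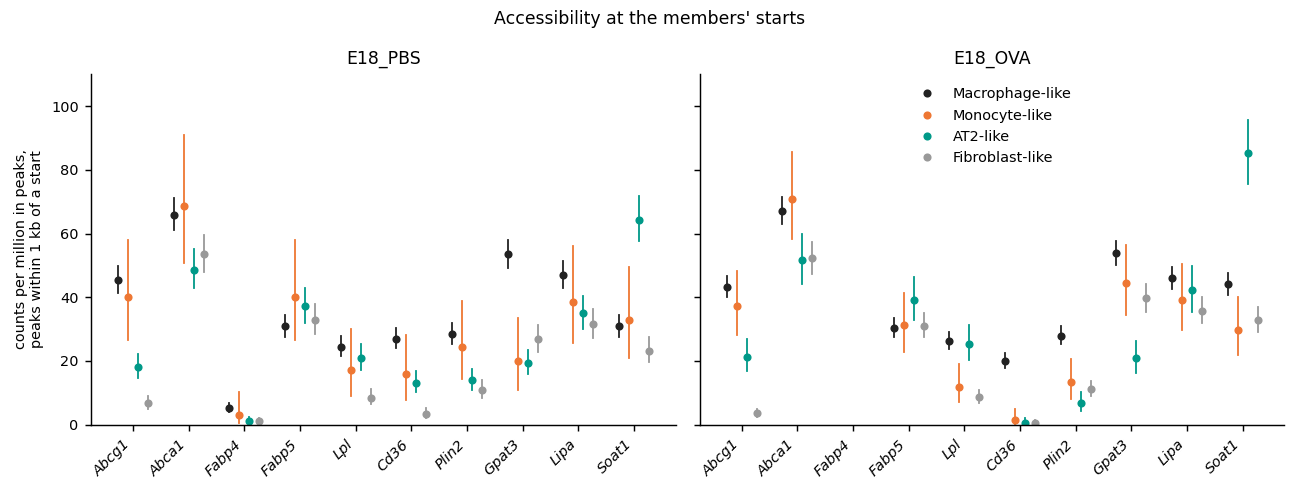
Transposition counts per 1000000 in peaks within 1 kb of the starts of the 10 genes, in Macrophage-like (black), Monocyte-like (orange), AT2-like (green) and Fibroblast-like (grey) nuclei, E18_PBS left and E18_OVA right, with 95% counting intervals. Abca1 stood at 65.9 and 67.2 in Macrophage-like nuclei, and Soat1 was highest in AT2-like nuclei.

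Abcg1 was 1.26 (1.08 to 1.45) and 1.08 (0.92 to 1.25) more accessible in Macrophage-like nuclei than in the rest on the log2 scale, Plin2 1.18 and 1.45, Gpat3 1.16 and 0.75, and Lpl 1.09 and 1.27. These are the 4 genes whose RNA was also highest there. Cd36, whose RNA was highest in AT2-like nuclei, had an interval above 0 in both libraries as well, and Fabp4 in E18_PBS. For Abca1 the margin was 0.37 (0.24 to 0.51) and 0.38 (0.26 to 0.50), and for Lipa 0.39 and 0.30. Against Monocyte-like nuclei only 1 gene in E18_PBS (Gpat3) and 4 in E18_OVA (Cd36, Lpl, Plin2 and Soat1) had an interval above 0, where 6.59% and 8.47% of all genes did.

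RNA and chromatin parted for some genes. Cd36 RNA was highest in AT2-like nuclei, but the counts at its starts were 13.1 and 0.593 per 1000000 there against 27.01 and 20.1 in Macrophage-like nuclei, over 4 peaks in E18_PBS and, in E18_OVA, the 1 peak that holds the promoter printed above. Cd36 has 5 starts, spread over chr5:17835696-17888747, and none of these peaks reached past chr5:17851124. Starts without a peak were not read, so the chromatin reading covers only part of the starts that could give the RNA. Abcg1 starts were as accessible in ILC2-like nuclei (50.4 and 46.2) as in Macrophage-like nuclei (45.4 and 43.3), where the RNA was 91.0 and 46.4 CPM against 711 and 737 CPM. In the C1qa-led cluster Gpat3, at 0 UMIs, had 9.56 and 7.90 counts per 1000000 on 4 counts in each library, against 57.4 and 58.3 in the Ear2-led cluster. For Fabp5 and Soat1, higher in AT2-like nuclei by RNA, the ratio of Macrophage-like to all other nuclei was -0.07 and -0.06, and -0.31 (-0.49 to -0.12) and 0.11 (-0.03 to 0.25).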

How the data were processed

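Nuclei of the 2 fetal lung libraries (1 per group, grouped by GEO's labels) were read for RNA and accessible chromatin together. The authors deposited raw counts, with no normalization, made with Cell Ranger ARC 2.0.1 on build mm10 (per the submitters' processing notes) for the barcodes it had called: gene UMIs, and transposition counts in peaks called in each library. Coordinates of genes are from GENCODE models on GRCm38.

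The study's limits of 200 detected genes or more and a mitochondrial share of up to 60% chose the nuclei. Doublets were scored against simulated ones (2 per nucleus) and called at 0.8% per 1000 barcodes, 293 in E18_PBS and 250 in E18_OVA. Nuclei were clustered without mitochondrial genes, the 10 genes and the listed pathway, maturation, interstitial and stress genes (3000 variable genes, 30 components, 15 neighbours, Leiden resolution 1.0; scanpy 1.11.5, igraph 0.11.9, scikit-learn 1.9.0). UMIs were summed per class and divided by nuclear-gene UMIs. The study scaled to all gene UMIs, which was an alternative here. Intervals are exact Poisson for levels, exact Clopper-Pearson for shares, exact conditional binomial for ratios and normal on the log scale for differences of ratios (scipy 1.17.1, numpy 2.4.6, pandas 2.3.3, Python 3.11.15). PCR and free RNA lie outside them. A gene was counted as past 2-fold with at least 100 UMIs over both libraries. Ratio intervals were tested on simulated Poisson sums, the counting model they assume. That checks the calculation and cannot show spread between nuclei, fetuses or libraries.

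The 10 genes, the lists and the markers were chosen with earlier results of these data known. The design fixed a gate as the main way to choose nuclei. The use of clusters for most of the description, their naming rule (at least 3 markers in 5% of nuclei and raised 1.5-fold), the exact neighbour search, the maturation groups of at least 1 gene against none and the search at 3 mismatches were set after gate counts and values of the genes had been seen. All 10 genes are named. One gene of the interstitial list is not reported here and was left out of its sums. Of the 4 pathway lists the 2 highest and 2 lowest ratios are named, and for the 4 genes with the most macrophage UMIs the 3 genes most like them by r of log2(CPM + 10), among genes with at least 500 UMIs. Pparg, Apoe, Inhba, Jund and Nr4a1 were named after their values were seen, as were single clusters.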

Additional observations from a re-analysis of the deposited data

How the results depend on the processing

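No paired analysis was possible because E18_PBS and E18_OVA were single libraries. Over the settings tried, 110 summary values stayed within their limits and 14 moved, and of 438 values of single genes 370 stayed, 66 moved and 2 that had been past 2-fold or clear of 0 changed sign. With smaller values included, 70 of the 438 had another sign. The number of genes past 2-fold between the libraries, 0 by the gate, was 1 with a gate of 2 markers and a lead of 1, 1 with a mitochondrial limit of 40% and 2 by clusters. By clusters it was 2, and it was 0 by the gate of 3 markers, 1 by the gate of 2 markers, and 1 when ratios were centred on the median gene, with a mitochondrial limit of 40%, as the mean of single-nucleus CPM, without the Ear2-led cluster and without the Wfdc17-led cluster. In the last 5 of these the gene lost was Abca1, at 0.92 to 0.99. With a minimum of 30 UMIs it was 3. Genes highest in gated macrophages of E18_OVA were 4, and 2 after thinning to 500 UMIs. Genes more accessible in gated macrophages of E18_PBS were 3, and 6 with peaks within 5 kb, 8 with the gate of 2 markers and 8 by clusters. The causes were not tested.

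Abca1 by clusters changed sign under the gate (-0.34) and otherwise stayed positive, up to 1.30 with all gene UMIs as the denominator. Gpat3 over monocytes in E18_OVA changed sign under the gate of 2 markers (-0.79). Fabp5 by clusters stayed negative over 14 settings, from -2.38 to -0.61. The macrophage over monocyte ratio had no value under the gate of 3 markers, with under 50 gated monocytes. Few UMIs stood behind Fabp4, Lipa and the C1qa-led cluster.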
